A study of Mus musculus with 24 samples.

Results

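The genes described here are 10 genes of heat-producing fat, Ucp1, Cidea, Ppargc1a, Prdm16, Dio2, Elovl3, Cox8b, Cox7a1, Otop1 and Ebf2. They were taken by name from the deposited table of 54532 genes, which held each of them once. The table covers 24 RNA sequencing libraries from white fat of C57BL6 mice, 12 from the inguinal depot under the skin (iWAT) and 12 from the epididymal depot in the abdomen (eWAT). The mice had been given an adeno-associated virus (AAV) that carried either irisin, the secreted piece of the Fndc5 protein, or, in the controls, green fluorescent protein (GFP), and had eaten a high-fat diet (HFD) or normal chow for 18 weeks. Each depot thus had 4 groups of 3 libraries: GFP on chow, irisin on chow, GFP on HFD and irisin on HFD. Every mouse carried a vector, so no group shows fat without a virus. Nothing in the labels gives the vector's promoter, its dose, the tissue it entered or the age and sex of the mice. Nor do they state that libraries of 1 group are from different mice or that the depots are from the same ones; the p-values below therefore speak only of the spread among libraries, which may be technical.

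Brown adipocytes burn fuel to make heat, and beige adipocytes are cells within white fat that can take on the same program, most readily in the subcutaneous depot. In both, noradrenaline acts through beta-adrenergic receptors and cyclic AMP to release fatty acids and to switch on Ucp1, whose protein lets protons leak back into the mitochondrial matrix so that respiration gives heat in place of ATP. Irisin is known as a muscle-derived signal reported to favour this program in white fat. Of the members, Prdm16, Ebf2 and Ppargc1a encode regulators of transcription: Prdm16 a co-regulator that holds brown and beige identity, Ebf2 a transcription factor that marks their precursors and opens their enhancers, and Ppargc1a a coactivator of mitochondrial biogenesis. Dio2 encodes the deiodinase that turns thyroxine into active thyroid hormone inside the cell. The other members act further down: Ucp1 itself, the proton channel Otop1, the fatty acid elongase Elovl3, the lipid droplet protein Cidea, and Cox8b and Cox7a1, subunits of cytochrome c oxidase in the form found in muscle and brown fat.

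The coordinates are those of the deposited table, for which no genome build is named in the labels. Ucp1 (ENSMUSG00000031710) runs on chromosome 8 from 83290352 to 83298452 on the plus strand, Cidea (ENSMUSG00000024526) on chromosome 18 from 67343564 to 67367794, plus, and Ppargc1a (ENSMUSG00000029167) on chromosome 5 from 51454250 to 51567726, minus. Prdm16 (ENSMUSG00000039410) runs on chromosome 4 from 154316125 to 154636873, minus, Dio2 (ENSMUSG00000007682) on chromosome 12 from 90724552 to 90738438, minus, and Elovl3 (ENSMUSG00000038754) on chromosome 19 from 46131897 to 46135307, plus. Cox8b (ENSMUSG00000025488) is on chromosome 7 from 140898945 to 140900446, minus, and Cox7a1 (ENSMUSG00000074218) on the same chromosome from 30184144 to 30186078, plus. Otop1 (ENSMUSG00000051596) is on chromosome 5 from 38275972 to 38304217, plus, and Ebf2 (ENSMUSG00000022053) on chromosome 14 from 67233292 to 67430918, plus. Other annotated genes overlap Cidea, Ppargc1a, Prdm16, Dio2 and Ebf2, most of them noncoding; the protocol describes both a stranded and an unstranded library and does not say which was made, so reads from a partner on the other strand cannot be told apart from theirs.

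The libraries held from 14145644 to 19726771 gene reads, as recovered from the table. Levels are in FPKM, fragments scaled to the gene's length in kilobases and to the library's depth, and can be compared between genes because they are per length. The depot labels matched the markers: Tbx15, a transcription factor of subcutaneous fat, was at 2.88 to 14.2 FPKM in iWAT and at most 0.0896 in eWAT, and Wt1 of visceral mesothelium at 1.19 to 11.9 in eWAT and at most 0.0204 in iWAT. Fndc5 itself was at 0.392 to 3.91 FPKM in iWAT of irisin mice on HFD and 0.163 to 0.258 in GFP mice, whereas in eWAT on HFD the vectors overlapped (1.04 to 4.94 and 1.44 to 3.22). A set of 4 libraries stood apart through genes of other tissues: iWAT GFP HFD 1 (a sum of 405 FPKM over 5 B cell genes), eWAT GFP chow 1 (116), iWAT irisin chow 3 (4431 over 11 skeletal muscle genes) and eWAT GFP HFD 3 (3237 over 5 epididymis genes). The results below were also computed without these 4.

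The levels of the 10 genes covered a wide range. The mean level per length over the 24 libraries was 57.4 FPKM for Cox8b, 10.8 for Cidea, 6.096 for Otop1, 5.89 for Cox7a1 and 4.68 for Ebf2, and lower for Prdm16 (1.74), Ppargc1a (0.832), Elovl3 (0.702), Dio2 (0.576) and Ucp1 (0.168). Neighbours in that order overlapped in their ranges over the libraries: Otop1 ran from 0.0575 to 17.1 FPKM, Cox7a1 from 2.34 to 12.99 and Ebf2 from 1.52 to 9.41. Ucp1 was at or near the limit of detection, with 0 reads in 10 libraries and at most 22 reads in any, where 1 read was worth 0.0311 to 0.0458 FPKM. Elovl3 had 0 reads in 8 libraries.

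Differences between groups were tested with limma on log2(FPKM + 0.5), all 4 groups of a depot together, over every gene with at least 0.5 FPKM in at least 3 libraries. A gene is called changed where its p-value, adjusted over all genes tested by the Benjamini-Hochberg method, was under 0.05. Changes are log2 fold changes ± SE on that scale, which understates the change of genes at low levels. Of the members, 9 passed the filter in both depots; Ucp1 did not and was tested by an exact permutation test of HFD against chow over the 12 libraries of a depot. Elovl3 and Dio2 in both depots and Otop1 in eWAT were under 0.5 FPKM in every chow library and passed only through HFD libraries, where they were high, so counts that include them describe the members and support nothing further. With no filter, Otop1 stayed called in both depots and Elovl3 and Dio2 in eWAT (limma adjusted p = 0.000135 to 0.0152), but not Elovl3 and Dio2 in iWAT (0.0819 and 0.0507).

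Members were called between the diets and not between the vectors. With both vectors averaged (6 HFD against 6 chow libraries), HFD raised Otop1, Elovl3 and Dio2 and lowered Ebf2 in iWAT, and the same 4 genes moved in the same directions in eWAT, while Prdm16, Ppargc1a, Cidea, Cox8b and Cox7a1 were not called in either depot. That is 3 of 9 higher and 1 of 9 lower in each depot. Of all 16125 genes tested in iWAT 9.45% were called higher and 8.02% lower, and of the 16274 tested in eWAT 20.9% and 18.4%, so in eWAT the number of members called (4 of 9) was close to the 39.3% of all genes that the diet changed there in either direction. In iWAT the background in either direction was 17.5%. Ucp1, outside these counts, was also higher on HFD in both depots.

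Ucp1 was almost silent on chow. In iWAT the GFP chow libraries had 0, 3 and 0 Ucp1 reads (0, 0.108 and 0 FPKM) and the irisin chow libraries 0, 0 and 1, against 15, 17 and 2 reads on HFD with GFP (0.467, 0.670 and 0.0651 FPKM) and 10, 4 and 12 on HFD with irisin (0.331, 0.183 and 0.409 FPKM). In eWAT none of the GFP chow libraries had a read and the irisin chow libraries had 0, 1 and 0, against 8, 22 and 7 on HFD with GFP (0.298, 0.787 and 0.239 FPKM) and 5, 0 and 6 with irisin (0.158, 0 and 0.234 FPKM). Every HFD library but eWAT irisin HFD 2 therefore held Ucp1 reads, but no library reached 1 FPKM. The 6 HFD libraries held 60 reads against 4 on chow in iWAT (mean 0.354 against 0.0245 FPKM, two-sided exact permutation p = 0.00433, n = 6 and 6) and 48 against 1 in eWAT (0.286 against 0.00550 FPKM, p = 0.0152); the smallest p this test can give is 0.00216. Without the 4 libraries rich in other tissues the exact p was 0.0159 in iWAT and 0.0476 in eWAT. Against the floor that 3 reads over the group set, Ucp1 in eWAT of GFP mice was at least 10.9-fold higher on HFD. In bulk tissue, more cells that express a gene and more of its RNA per cell cannot be told apart, here and in every comparison that follows. The 250 bases before the start of Ucp1 are shown because this gene defines the program. They are from RefSeq on GRCm38.p6, plus strand, chr8:83290098-83290347, written 5′ to 3′ with a TATA box match (TATANA) and a nuclear receptor half-site (AGGTCA) in capitals.
Ucp1: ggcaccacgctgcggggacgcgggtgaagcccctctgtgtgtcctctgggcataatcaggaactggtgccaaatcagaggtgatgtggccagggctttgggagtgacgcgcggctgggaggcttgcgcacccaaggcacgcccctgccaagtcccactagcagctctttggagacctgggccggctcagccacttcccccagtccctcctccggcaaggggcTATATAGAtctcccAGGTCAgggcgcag
The TATA match begins 28 bases and the half-site 14 bases before the start.

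Otop1, the proton channel, was higher on HFD in both depots. In iWAT it was at 2.81, 3.81 and 10.5 FPKM in GFP chow libraries and 3.15, 0.708 and 1.89 in irisin chow libraries, and at 8.89, 17.0 and 12.7 on HFD with GFP and 15.8, 13.6 and 17.1 on HFD with irisin. In eWAT it was at 0.0575, 0.293 and 0.0695 FPKM (GFP) and 0.209, 0.235 and 0.0749 (irisin) on chow, and at 7.02, 7.90 and 5.39 (GFP) and 8.18, 2.59 and 6.30 (irisin) on HFD. The diets did not overlap in eWAT, where 8.33% of all genes had every HFD library above every chow library; in iWAT they overlapped only through GFP chow 3. Otop1 rose by 2.06 ± 0.33 in iWAT (14.2 against 3.81 FPKM, limma adjusted p = 0.0026) and by 3.30 ± 0.23 in eWAT (6.23 against 0.157 FPKM, limma adjusted p = 2.45e-05). It was called under each alternative setting tried for these averaged comparisons, including without any 1 library. The 250 bases before its RefSeq start (GRCm38.p6, plus strand, chr5:38277154-38277403) are shown for comparison with Ucp1 and held none of the 5 motifs searched. That start lies 1432 bases downstream of the start in the deposited table. If both use the same build, the window is thus inside the gene as deposited, and not before it.
Otop1: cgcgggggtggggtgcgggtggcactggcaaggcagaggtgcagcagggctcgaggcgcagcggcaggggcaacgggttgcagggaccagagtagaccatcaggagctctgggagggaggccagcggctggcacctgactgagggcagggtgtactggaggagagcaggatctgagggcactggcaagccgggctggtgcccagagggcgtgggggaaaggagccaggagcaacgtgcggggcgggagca

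Elovl3, whose enzyme lengthens fatty acids and is induced in brown fat by cold, followed the same order with wider scatter. On chow it had at most 5 reads in any library: 5, 0 and 5 in iWAT of GFP mice, 0, 1 and 0 in iWAT of irisin mice, 0, 4 and 0 in eWAT of GFP mice and none in eWAT of irisin mice. On HFD it was at 0.409, 5.82 and 0.642 FPKM (GFP) and 2.76, 0.201 and 1.60 (irisin) in iWAT, and at 0.571, 0.392 and 1.01 (GFP) and 1.14, 0.0962 and 1.58 (irisin) in eWAT. GFP HFD 2 of iWAT stood highest of all 24 libraries, and irisin HFD 2 was the lowest HFD library in both depots. Elovl3 rose by 1.65 ± 0.49 in iWAT (1.91 against 0.0721 FPKM, limma adjusted p = 0.0402) and by 1.18 ± 0.29 in eWAT (0.799 against 0.0322 FPKM, limma adjusted p = 0.00781). The call in iWAT rested on all the libraries together: it was lost without any 1 of 9 of the 12 (each chow library, GFP HFD 2, irisin HFD 1 or irisin HFD 3; limma adjusted p = 0.0534 to 0.0918), with log2(FPKM + 1) (0.0601) and with a replicate block (0.0641), besides with no filter. In eWAT of irisin mice Elovl3 was at least 23.6-fold higher on HFD against the floor of 3 reads over the group.

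Dio2, the activator of thyroid hormone, was low on chow in both depots. In iWAT it was at 0.387, 0.468 and 0.224 FPKM (GFP) and 0.0944, 0.168 and 0.152 (irisin) on chow, and at 0.455, 1.02 and 0.357 (GFP) and 0.783, 3.45 and 1.25 (irisin) on HFD. In eWAT it was at 0.295, 0.409 and 0.103 (GFP) and 0.103, 0.0928 and 0.0665 (irisin) on chow, and at 0.701, 0.513 and 0.693 (GFP) and 0.704, 0.865 and 0.472 (irisin) on HFD. The diets overlapped in iWAT and did not in eWAT, where 8.33% of all genes had every HFD library above every chow library. Dio2 rose by 1.02 ± 0.27 in iWAT (1.22 against 0.249 FPKM, limma adjusted p = 0.0247) and by 0.79 ± 0.15 in eWAT (0.658 against 0.178 FPKM, limma adjusted p = 0.00202). The iWAT call was also lost without GFP chow 1, irisin chow 1, irisin chow 3 or GFP HFD 2 (limma adjusted p = 0.0507 to 0.0625). Dio2 is a known target of cyclic AMP signalling. Its promoter window is shown for the only full cAMP response element (TGACGTCA) found among the 7 members with a window. It is RefSeq sequence on GRCm38.p6, minus strand, chr12:90739039-90739288, with that element and a TATA match in capitals.
Dio2: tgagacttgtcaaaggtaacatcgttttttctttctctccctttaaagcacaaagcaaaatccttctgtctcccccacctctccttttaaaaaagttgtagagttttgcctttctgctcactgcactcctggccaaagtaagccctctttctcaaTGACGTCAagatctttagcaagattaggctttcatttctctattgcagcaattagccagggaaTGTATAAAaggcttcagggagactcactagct
The element begins 95 bases before the RefSeq start, which lies 600 bases from the start in the deposited table.

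Such a window was used for 7 of the 10 members, and for none of Cidea, Elovl3 and Ebf2. The 5 motifs were searched on both strands, with overlapping matches allowed, and their shares among all 32851 RefSeq mouse promoter windows of the same length were 1.55% for TGACGTCA, 22.6% for TATANA, 33.8% for CCAAT, 14.0% for AGGTCA and 0.779% for the EBF motif (TCCC and GGGA with any 2 bases between). Ucp1 and Dio2 had TATANA, Ucp1 had AGGTCA, Prdm16 and Cox7a1 had CCAAT, and no window of the 7 had the EBF motif. The windows of Ppargc1a, Cox8b and Otop1 held none of the 5. A match describes the letters and shows no binding.

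Ebf2, the factor of beige and brown precursors, moved the other way. In iWAT it was at 7.15, 7.33 and 6.42 FPKM (GFP) and 7.05, 9.41 and 7.20 (irisin) on chow, and at 1.52, 2.09 and 2.63 (GFP) and 2.64, 4.44 and 2.82 (irisin) on HFD. In eWAT it was at 4.88, 5.98 and 6.80 (GFP) and 6.76, 6.48 and 6.29 (irisin) on chow, and at 2.60, 2.58 and 2.04 (GFP) and 3.03, 2.27 and 1.98 (irisin) on HFD. In each depot every HFD library lay below every chow library, which held for 3.16% of all genes in iWAT and 7.04% in eWAT. Ebf2 fell by 1.36 ± 0.15 in iWAT (2.69 against 7.43 FPKM, limma adjusted p = 0.000457) and by 1.20 ± 0.11 in eWAT (2.42 against 6.20 FPKM, limma adjusted p = 6.37e-05), and was called under each alternative setting tried for these averages. Markers of stromal progenitors (Pdgfra, Dpp4, Pi16 and Cd34) were also called lower on HFD, 2 of 4 in iWAT and 3 of 4 in eWAT. In iWAT the sum of the 4 was 23.1 FPKM in GFP chow 3, 180 to 269 in the rest of the chow libraries and 28.2 to 82.4 on HFD. In eWAT it was 82.3 to 109 on chow and 40.3 to 76.7 on HFD. In iWAT 4 of 4 nerve and Schwann cell genes (median -1.55) and 5 of 9 skeletal muscle genes (median -2.52) were called lower as well and 2 of 3 endothelial genes higher, and in eWAT 3 of 3 mesothelial genes were called lower. Summed, the nerve and Schwann genes were at 29.5 to 154 FPKM on chow and 10.4 to 34.9 on HFD in iWAT. The mesothelial genes were at 159 to 286 and 13.9 to 131 in eWAT. The sum of 11 skeletal muscle genes in iWAT was 90.9 to 4431 FPKM in irisin chow libraries but 18.5 to 26.5 in GFP chow. On HFD it was 14.8 to 18.9 with GFP and 19.4 to 37.1 with irisin. The part of these cell types in the diet results of Ebf2 and the other members was not tested.

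**Figure D1:**
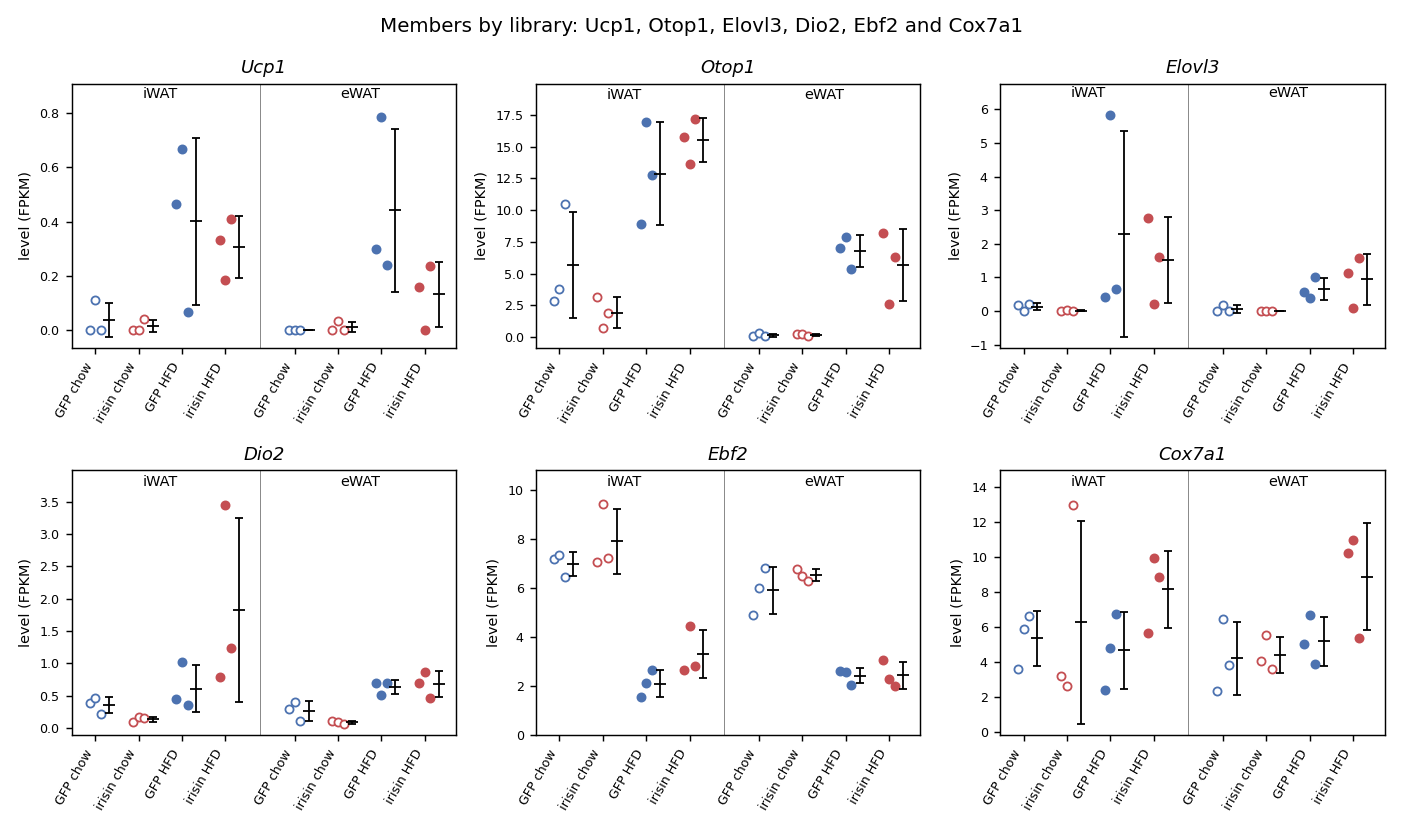
Level in FPKM (vertical axis, linear) of Ucp1, Otop1, Elovl3, Dio2, Ebf2 and Cox7a1 in each of the 24 libraries, by vector and diet (horizontal axis) within iWAT (left of the grey line) and eWAT (right). Points are libraries (blue GFP, red irisin; open chow, filled HFD) and the black marks are the mean ± SD of 3 libraries; Ebf2 lies lower on HFD in every library, whereas Otop1 in eWAT goes from at most 0.293 FPKM on chow to at least 2.59 on HFD.

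The other 5 members showed no called diet effect in either average. Prdm16 was at log2 0.39 ± 0.15 in iWAT (3.04 against 2.27 FPKM, limma adjusted p = 0.0938) and 0.32 ± 0.14 in eWAT (0.986 against 0.677, limma adjusted p = 0.086); it was called higher in iWAT without GFP chow 3 (0.49, limma adjusted p = 0.0289) and in eWAT without GFP HFD 1 (0.41, limma adjusted p = 0.0371). Cox7a1, the oxidase subunit shared with muscle, was at 0.20 ± 0.37 in iWAT (6.41 against 5.82 FPKM, limma adjusted p = 0.738) and 0.62 ± 0.24 in eWAT (7.03 against 4.30, limma adjusted p = 0.0677). In iWAT its highest chow value, 12.99 FPKM, was in the muscle-rich library irisin chow 3, and without the 4 libraries rich in other tissues it was called higher (0.72 ± 0.21, limma adjusted p = 0.0449). In eWAT it was called higher without GFP chow 2 or irisin HFD 3 (limma adjusted p = 0.0205 and 0.0233) and with a replicate block (0.0208).

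Cox8b, Cidea and Ppargc1a were not called and had values of either sign. Cox8b was at -0.73 ± 0.34 in iWAT (70.1 against 113 FPKM, limma adjusted p = 0.157; by vector, it was at -1.58 ± 0.48 with GFP, adjusted p = 0.108, and 0.11 ± 0.48 with irisin, adjusted p = 0.904) and -0.08 ± 0.36 in eWAT (23.8 against 22.9, limma adjusted p = 0.883). In iWAT of GFP mice every HFD library of Cox8b (22.1, 57.3 and 67.0 FPKM) lay below every chow library (134, 78.9 and 218), as was so for 11.3% of all genes. Cidea was at -0.08 ± 0.36 in iWAT (18.5 against 19.2 FPKM, limma adjusted p = 0.904) and -0.35 ± 0.31 in eWAT (2.63 against 2.89, limma adjusted p = 0.401). Ppargc1a was at -0.30 ± 0.22 in iWAT (1.07 against 1.36 FPKM, limma adjusted p = 0.374) and 0.01 ± 0.15 in eWAT (0.449 against 0.445, limma adjusted p = 0.966).

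The make-up of eWAT changed with the diet as well. Of 8 macrophage genes 7 were called higher there on HFD (median 2.25), and of 9 adipocyte genes 6 were called lower and 1 higher (median -0.82). The sum of 6 of the macrophage genes (Adgre1, Cd68, Csf1r, Trem2, Itgax and Mrc1) was 107 to 139 FPKM on chow and 190 to 1066 on HFD, and its part in the members' changes was not tested. The HFD library with the lowest sum, eWAT irisin HFD 2, also had the lowest Otop1 (2.59 FPKM) and Elovl3 (0.0962) and no Ucp1 read of the 6, but the highest Cidea (6.73) and Cox7a1 (11.01) and an adipocyte sum of 11759 FPKM against 4291 to 6239 in the other 5.

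Split by vector, the diet comparisons rest on 3 against 3 libraries. In iWAT of GFP mice, where 2.37% of all genes were called, the only member called was Ebf2 (-1.55 ± 0.21, limma adjusted p = 0.0118), and this call was lost without GFP chow 1 or GFP HFD 2 (0.0634 and 0.0552) and with only these groups fitted (0.0598). In iWAT of irisin mice, at a background of 9.01%, Otop1 (2.86 ± 0.47, limma adjusted p = 0.00741) and Dio2 (1.70 ± 0.38, limma adjusted p = 0.0216) were called higher and Ebf2 lower (-1.16 ± 0.21, limma adjusted p = 0.0111). Of these, Dio2 was lost without any irisin chow library or irisin HFD 3 (0.0655 to 0.0704) and without the 4 libraries rich in other tissues (0.0555), and Ebf2 without irisin HFD 3 (0.0581). In eWAT of GFP mice, at 26.5%, Otop1 rose (3.51 ± 0.33, limma adjusted p = 0.000357) and Ebf2 fell (-1.13 ± 0.16, limma adjusted p = 0.00132). In eWAT of irisin mice, at 17.4%, Otop1 (3.08 ± 0.33, limma adjusted p = 0.000892), Dio2 (0.99 ± 0.21, limma adjusted p = 0.0117) and Elovl3 (1.34 ± 0.41, limma adjusted p = 0.0442) rose and Ebf2 fell (-1.28 ± 0.16, limma adjusted p = 0.00151). The Elovl3 call there was lost without any 1 of 5 of the 6 libraries (all but irisin HFD 2; 0.101 to 0.146), with no filter (0.0802), with a filter of 1 FPKM (0.0519), with a replicate block (0.054) and without the 4 libraries rich in other tissues (0.0565). A call with 1 vector and none with the other does not show that the diet acted differently; the test of that difference follows with the vector.

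Cidea, Cox8b, Prdm16 and Ppargc1a had higher group means in iWAT than in eWAT at each vector and diet. None of them was called for the averaged diet. Not every one of these depot differences was called, as given below, and Otop1, called by diet, was called by depot as well. Cidea, which coats lipid droplets, was at 18.6, 13.5 and 47.8 FPKM (GFP) and 13.7, 7.49 and 14.0 (irisin) in iWAT on chow and at 7.65, 9.58 and 14.0 (GFP) and 13.5, 47.3 and 18.7 (irisin) on HFD. In eWAT it was at 2.61, 2.85 and 2.67 (GFP) and 2.63, 3.62 and 2.99 (irisin) on chow and at 0.628, 2.01 and 2.16 (GFP) and 2.89, 6.73 and 1.37 (irisin) on HFD. Each iWAT library lay above each eWAT library, the lowest of iWAT at 7.49 FPKM and the highest of eWAT at 6.73. What share of all genes separated by depot in this way was not computed, here and for Prdm16 and Ppargc1a below. GFP chow 3 and irisin HFD 2 of iWAT stood about equally far above the other 10 iWAT libraries.

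Cox8b, the cytochrome c oxidase subunit, was also highest in GFP chow 3 and, barely, irisin HFD 2. It was at 134, 78.9 and 218 FPKM (GFP) and 84.9, 57.6 and 104 (irisin) in iWAT on chow and at 22.1, 57.3 and 67.0 (GFP) and 60.3, 135 and 78.8 (irisin) on HFD. In eWAT it was at 16.9, 32.3 and 12.6 (GFP) and 25.3, 26.5 and 23.6 (irisin) on chow and at 15.6, 27.8 and 12.7 (GFP) and 42.1, 34.7 and 9.57 (irisin) on HFD. Only iWAT GFP HFD 1, the B-cell-rich library, fell within the eWAT range. Cox7a1, its partner in the same enzyme, showed no such order: it was at 3.59, 5.86 and 6.62 (GFP chow), 3.21, 2.62 and 12.99 (irisin chow), 2.38, 4.82 and 6.77 (GFP HFD) and 5.67, 9.95 and 8.85 FPKM (irisin HFD) in iWAT. In eWAT Cox7a1 was at 2.34, 6.47 and 3.801, at 4.04, 5.55 and 3.61, at 5.01, 6.67 and 3.87 and at 10.3, 11.01 and 5.37 FPKM in the same order of groups, so the depots overlapped.

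The regulators Prdm16 and Ppargc1a were lower in level and less scattered. Prdm16 was at 2.74, 1.79 and 3.66 (GFP chow), 2.003, 1.58 and 1.86 (irisin chow), 2.50, 3.13 and 3.31 (GFP HFD) and 3.44, 2.91 and 2.95 FPKM (irisin HFD) in iWAT, and at 0.630, 0.596 and 0.655, at 0.908, 0.747 and 0.526, at 0.751, 1.24 and 1.34 and at 0.833, 0.701 and 1.05 in eWAT in the same order. No eWAT library reached an iWAT one. Ppargc1a was at 1.82, 1.44 and 1.12, at 1.09, 1.20 and 1.505, at 0.656, 0.870 and 1.56 and at 0.501, 1.78 and 1.05 FPKM in iWAT, and at 0.220, 0.438 and 0.399, at 0.391, 0.663 and 0.557, at 0.332, 0.497 and 0.458 and at 0.597, 0.556 and 0.252 in eWAT. On chow the depots did not overlap in Ppargc1a; on HFD they did.

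**Figure D2:**
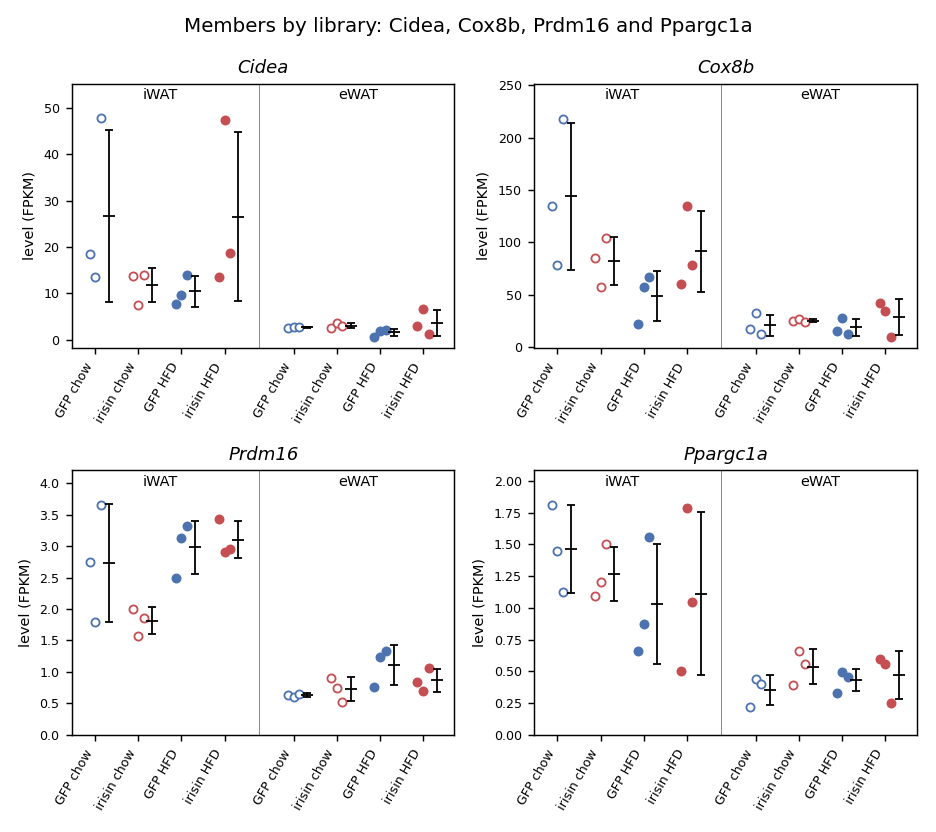
Level in FPKM (vertical axis, linear) of Cidea, Cox8b, Prdm16 and Ppargc1a in each library by vector and diet (horizontal axis) within iWAT and eWAT. Points are libraries (blue GFP, red irisin; open chow, filled HFD) and black marks the mean ± SD of 3 libraries; Cidea and Prdm16 are higher in every iWAT library than in every eWAT library, and Cidea peaks at 47.8 and 47.3 FPKM in iWAT GFP chow 3 and irisin HFD 2.

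The depots were compared at the same vector and diet in a fit of all 8 groups, over 17687 genes. In GFP mice on chow 5 of 9 members were higher in iWAT, where 1.50% of all genes were called higher and 4.63% called in either direction. They were Otop1 (3.09 ± 0.43, limma adjusted p = 0.000113), Cidea (2.87 ± 0.51, limma adjusted p = 0.00138), Cox8b (2.77 ± 0.52, limma adjusted p = 0.00273), Prdm16 (1.48 ± 0.20, limma adjusted p = 7.89e-05) and Ppargc1a (1.20 ± 0.26, limma adjusted p = 0.00889). No member was called lower in iWAT in any of the 4 depot comparisons. Without the 4 libraries rich in other tissues, or without iWAT GFP chow 1, Ppargc1a was no longer called (limma adjusted p = 0.0512 and 0.054).

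In the other 3 settings fewer members passed. On HFD with GFP, where 5.56% of all genes were higher in iWAT and 15.2% called in either direction, Cidea (2.44 ± 0.51, limma adjusted p = 0.003) and Prdm16 (1.13 ± 0.20, limma adjusted p = 0.000761) were called; without iWAT GFP HFD 1 the count was 4. With irisin on chow (1.93% higher, 4.33% in either direction), Prdm16 (0.92 ± 0.20, limma adjusted p = 0.00746) and Otop1 (1.71 ± 0.43, limma adjusted p = 0.0226) were called. Otop1 was lost there without any 1 of 5 of the 6 libraries (all but iWAT irisin chow 2; limma adjusted p = 0.0539 to 0.14), with log2(FPKM + 1) (0.0751), with voom (0.0872) and without the 4 libraries rich in other tissues (0.0969), and Prdm16 without eWAT irisin chow 3 (0.0585). With irisin on HFD (3.54% higher, 10.3% in either direction), Cidea (2.71 ± 0.51, limma adjusted p = 0.00296), Prdm16 (1.41 ± 0.20, limma adjusted p = 0.000348), Cox8b (1.81 ± 0.52, limma adjusted p = 0.0341) and Otop1 (1.49 ± 0.43, limma adjusted p = 0.032) were called. Cox8b was lost without iWAT irisin HFD 2, iWAT irisin HFD 3 or eWAT irisin HFD 3 (0.0694 to 0.201), with a replicate block (0.0574) and with no filter (0.0677). Otop1 was lost without any 1 of 5 of the 6 libraries (all but eWAT irisin HFD 1; 0.0613 to 0.103), with log2(FPKM + 0.1) (0.0615) and with no filter (0.0645). When only these 2 groups were fitted none of the 4 passed, with adjusted p from 0.0563 for Prdm16 to 0.161 for Cox8b. Cell markers moved with the depot on HFD: of 9 adipocyte genes 4 were called higher in iWAT with GFP and 3 with irisin, and of 8 macrophage genes 6 were called lower with either vector (medians -2.94 and -2.21). With irisin on chow 8 of 9 skeletal muscle genes and 4 of 4 nerve and Schwann cell genes were called higher in iWAT (2 of 4 nerve and Schwann cell genes in each of the other 3 comparisons). Mesothelial genes were called lower in iWAT in all 4 comparisons (3 of 3 each), and the part of these cell types in the members' differences was not tested.

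The diet effect itself was then compared between the depots, again for each vector. With GFP the only member called was Otop1 (4.31% of all genes were called): its rise on HFD was smaller in iWAT than in eWAT by 2.25 ± 0.60 on the log2 scale (limma adjusted p = 0.0397). This call was lost without any 1 of 10 of the 12 libraries (0.0528 to 0.0964; all but iWAT GFP chow 1 and iWAT GFP HFD 2), with log2(FPKM + 1), with no filter, with a replicate block and without the 4 libraries rich in other tissues (0.0519 to 0.122). With irisin no member was called, against 3.73% of all genes, and for Otop1 the difference was -0.22 ± 0.60 (limma adjusted p = 0.883).

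**Figure D3:**
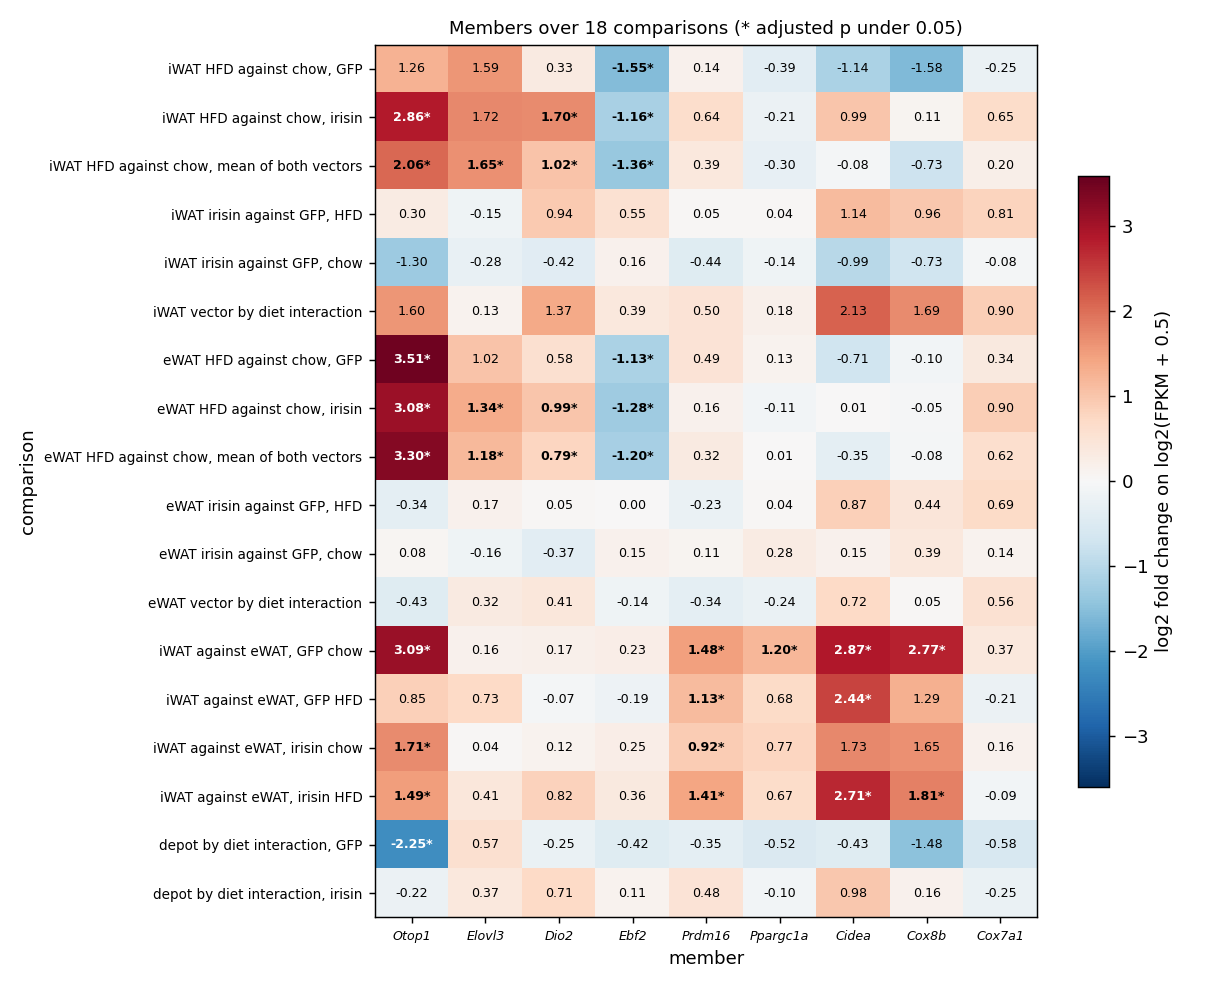
Log2 fold change on log2(FPKM + 0.5) of the 9 tested members (columns; Ucp1 was below the filter) in the 18 comparisons of the fits (rows), red higher and blue lower in the first-named group. Bold values with an asterisk were called at a limma adjusted p under 0.05: Ebf2 was called in every comparison of HFD with chow, Otop1 in all but iWAT with GFP, Prdm16 in every depot comparison and Cidea in all but irisin on chow, and none was called in the vector comparisons.

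None of the 9 tested members was called in any of the 4 comparisons of irisin with GFP. With 3 against 3 libraries this does not show that the vector had no effect on them. limma called 0 of 16125 genes in iWAT and 0 of 16274 in eWAT (0% on either diet), with voom on recovered reads also calling no member. At an unadjusted p under 0.05 limma had 431 genes (2.67%) in iWAT on HFD, 3 of the 9 members among them, and 688 (4.27%) in iWAT on chow with 1 member. In eWAT it had 1510 genes (9.28%) on HFD and 845 (5.19%) on chow, with no member. The values that follow are therefore differences that did not pass.

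In iWAT on HFD, 8 of 9 members had a higher mean log2 level with irisin, against 50.7% of all genes, and their median difference was 0.55 (0.0039 over all genes). The effector genes lay at 1.14 ± 0.52 for Cidea, 0.96 ± 0.48 for Cox8b, 0.81 ± 0.52 for Cox7a1 and 0.30 ± 0.47 for Otop1, with limma adjusted p of 0.946 to 0.958. Dio2 lay at 0.94 ± 0.38 and Ebf2 at 0.55 ± 0.21, both with a limma adjusted p of 0.946. Prdm16 (0.05 ± 0.21), Ppargc1a (0.04 ± 0.31) and Elovl3 (-0.15 ± 0.69) were nearer 0, with limma adjusted p of 0.987 to 0.993, and each changed sign in at least 1 alternative. Ebf2 was the only tested member whose irisin libraries (2.64, 4.44 and 2.82 FPKM) all lay above its GFP libraries (1.52, 2.09 and 2.63) with the nearest pair almost equal; 3.21% of all genes did so. Ucp1 had 10, 4 and 12 reads with irisin and 15, 17 and 2 with GFP, which overlapped. Without the 4 libraries rich in other tissues, of which GFP HFD 1 is the one in this comparison, the count was 6 of 9 and the median 0.38; with upper quartile scaling 6 of 9 were also higher.

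Adipocyte genes lay in the same direction in that comparison: all 9 (Adipoq, Plin1 and others) had higher means with irisin, none called (median 0.48), and their summed level was 9038 to 11930 FPKM with irisin and 5163 to 9963 with GFP. GFP HFD 1, at the low end with 5163, had Adipoq at 841 FPKM against 1544 to 1958 in the other 5 libraries and also held the lowest Cidea, Cox8b, Cox7a1, Otop1, Ebf2 and Prdm16 of the 6. At the other end, irisin HFD 2 held the highest Cidea, Cox8b, Cox7a1, Dio2, Ebf2 and Ppargc1a. The part of these libraries in the members' differences was not tested beyond leaving them out.

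On chow the members lay the other way. In iWAT 1 of 9 had a higher mean log2 level with irisin and 8 a lower one, where 49.0% of all genes were higher, with a median of -0.42 and a range from -1.30 for Otop1 to 0.16 for Ebf2 (limma adjusted p = 0.919 to 0.982). All 9 adipocyte genes were lower too (median -0.30), and skeletal muscle genes were higher in all 9 of 9 tested, with Ckm, the muscle creatine kinase, at 4.83, 17.2 and 279 FPKM in the irisin libraries and at most 0.0213 with GFP. Their part was not tested. Without the 4 libraries rich in other tissues 8 of 9 members were again lower, with a median of -0.46. That fit keeps irisin chow 1 and 2, whose muscle sums (90.9 and 302 FPKM) were still above those with GFP (18.5 to 26.5). Dio2 was the only tested member whose irisin libraries (0.0944, 0.168 and 0.152 FPKM) all lay below its GFP libraries (0.387, 0.468 and 0.224), as 8.12% of all genes did. GFP chow 3 held the highest Cidea, Cox8b, Otop1 and Prdm16 of the 6 libraries and the highest adipocyte sum (10091 against 5229 to 7414 FPKM). It also held the lowest sums of stromal progenitor genes (23.1 against 180 to 269 FPKM) and of the 6 macrophage genes (32.9 against 185 to 234). The part of this make-up in the members' levels was not tested.

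The difference of the vector effect between the diets in iWAT was positive for 9 of 9 members, against 48.8% of all genes, and none was called (0% of all genes; limma adjusted p = 0.688 to 0.981). Its median was 0.90, from 0.13 for Elovl3 to 2.13 for Cidea, and 4 of 9 had an unadjusted p under 0.05 in limma, against 6.18% of all genes. These values reuse both vector comparisons and are no further evidence for either. Leaving out 1 library at a time gave 8 or 9 positive members and medians from 0.52 to 1.38.

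In eWAT no vector difference of a member passed either. On HFD 7 of 9 were higher with irisin, against 48.8% of all genes, with a median of 0.05. Leaving out any 1 library gave 4 to 6 of 9, and leaving out the 4 libraries rich in other tissues 6 of 9. Cidea lay at 0.87 ± 0.44 and Cox7a1 at 0.69 ± 0.35 (both limma adjusted p = 0.541), Cox8b at 0.44 ± 0.51 (0.76), Elovl3 at 0.17 ± 0.41 (0.897) and Dio2 at 0.05 ± 0.21 (0.953). Ppargc1a lay at 0.04 ± 0.21 (limma adjusted p = 0.956), Ebf2 at 0.0008 ± 0.16 (1), Prdm16 at -0.23 ± 0.20 (0.676) and Otop1 at -0.34 ± 0.33 (0.714). All 9 adipocyte genes were higher there (median 0.65) and 7 of 8 macrophage genes lower (median -0.99), none called, and their part was not tested. The library eWAT irisin HFD 2 held the highest Cidea and Cox7a1 and the lowest Otop1 and Elovl3 of the 6. Ucp1 was lower in each irisin library (0.158, 0 and 0.234 FPKM) than in each GFP library (0.298, 0.787 and 0.239), with the nearest pair almost equal. These values rest on 5, 0 and 6 reads against 8, 22 and 7. What share of all genes separated in this way was not computed, and 3 against 3 libraries cannot give an exact two-sided p under 0.1. On chow 7 of 9 members were higher, against 51.0% of all genes (median 0.14, limma adjusted p = 0.939 to 1). Leaving out any 1 library gave 5 to 7 of 9, and leaving out the 4 libraries rich in other tissues 5 of 9. In the test of the difference between diets no member was called, against 0.00614% of all genes (1 gene). There no member had an unadjusted p under 0.05 in limma, against 4.04%, and 5 of 9 were positive, against 47.6%.

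**Figure D4:**
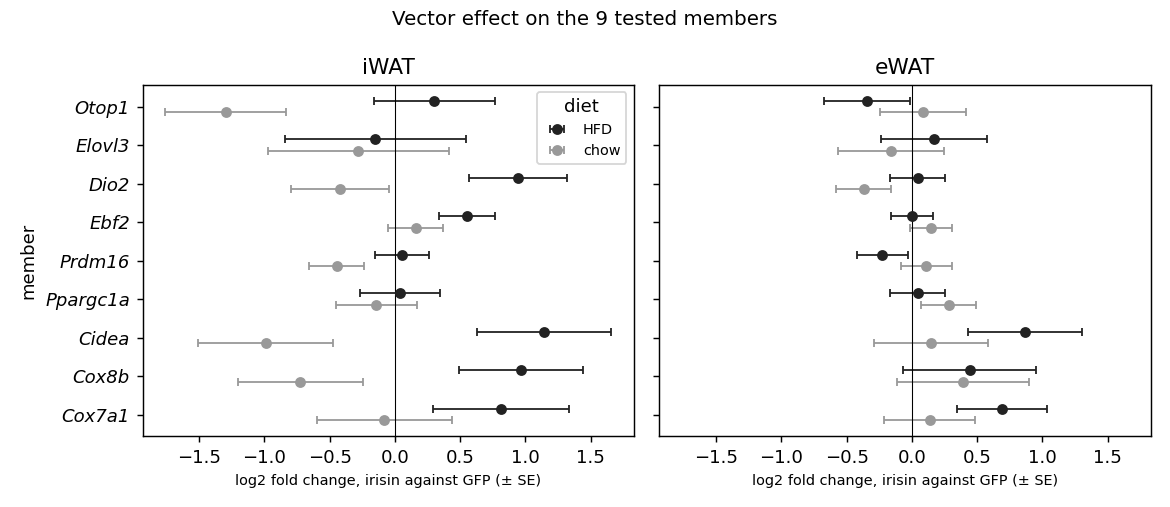
Vector effect on the 9 tested members (vertical axis) as the log2 fold change of irisin against GFP on log2(FPKM + 0.5) (horizontal axis), in iWAT (left) and eWAT (right), on HFD (black) and chow (grey). Points are limma estimates and bars ± 1 SE; in iWAT 8 of 9 black points lie right of 0 and 8 of 9 grey points left of it, and no estimate was called.

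Several members called by depot, and several called by diet, varied together over the 24 libraries. As a description, with libraries that share depot, vector and diet, the Pearson r of log2(FPKM + 0.5) was 0.91 for Cidea with Cox8b, 0.87 for Ppargc1a with Cox8b, 0.84 for Cidea with Ppargc1a and 0.82 for Cidea with Prdm16. On the other side it was 0.72 for Ucp1 with Elovl3 and 0.71 for Elovl3 with Otop1, and -0.74 for Ucp1 with Ebf2 and -0.72 for Elovl3 with Ebf2. Across the sets it ranged widely, from -0.15 for Prdm16 with Ebf2 and -0.14 for Ucp1 with Cox8b to 0.43 for Cidea with Otop1 and 0.74 for Prdm16 with Otop1; Otop1 was itself called by depot as well as by diet. Cox7a1 was not close to any other member, with r from -0.15 to 0.45.

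**Figure D5:**
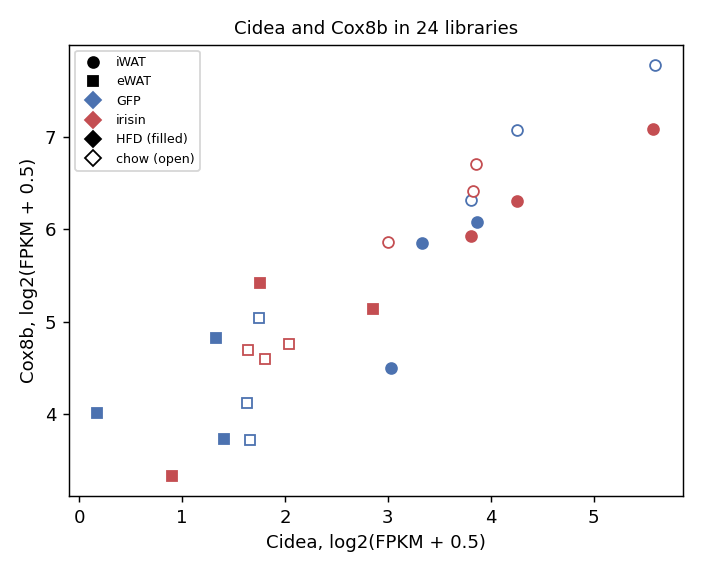
Cidea (horizontal axis) and Cox8b (vertical axis), each as log2(FPKM + 0.5), in 24 libraries: circles iWAT, squares eWAT, blue GFP, red irisin, filled HFD, open chow. The depots form separate groups along Cidea, and the Pearson r over all 24 is 0.91.

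Among 13500 protein-coding genes, those most like each member over the 24 libraries by the same r were the following. For Cidea they were Nap1l5 (0.95), Aatk (0.94) and BC067074 (0.93), for Cox8b Cidea (0.91), Ffar2 (0.90) and Haus7 (0.89), for Prdm16 Fbxo27 (0.92), Hoxa10 (0.92) and Gldc (0.90) and for Ppargc1a Irx2 (0.90), Cnr1 (0.89) and Ccdc42 (0.89). For Otop1 they were Hapln3 (0.95), Eipr1 (0.94) and Iffo2 (0.94), for Elovl3 Wnt8b (0.92), Pramef12 (0.92) and Hapln4 (0.91), for Ucp1 Blm (0.89), Pramef12 (0.87) and Dtl (0.86) and for Dio2 Clec16a, Deptor and Stau2 (each 0.85). For Ebf2 they were Prtn3 (0.94), Apoe (0.93) and Fcgrt (0.91), and for Cox7a1, with the loosest fit, D17Wsu92e (0.81), Aldoa (0.81) and Sar1b (0.78). Pramef12 was among the 3 nearest of both Ucp1 and Elovl3.

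Other genes of the pathway, 59 listed by role and 58 found in the table, included called genes of both directions on HFD. With vectors averaged, 7 were called higher and 9 lower of 49 tested in iWAT, where 9.45% and 8.02% of all genes were, and 12 higher and 10 lower of 45 in eWAT, near the 20.9% and 18.4% of all genes; the median difference was 0.02 and -0.05, and -0.02 and -0.0027 over all genes. None was called between the vectors on HFD. These shares of all genes are also the background for the diet counts of each list below.

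Upstream, Adrb3, the beta-adrenergic receptor of adipocytes through which noradrenaline drives Ucp1, fell by 2.25 ± 0.37 in iWAT (54.5 against 243 FPKM, limma adjusted p = 0.0032) and by 3.47 ± 0.41 in eWAT (50.2 against 392 FPKM, limma adjusted p = 0.000168). Ucp1, Otop1, Elovl3 and Dio2 were thus higher on the diet on which this receptor was lower. Fgf21, a hormone of the browning response, rose by 0.96 ± 0.22 in iWAT and 1.12 ± 0.16 in eWAT, while its receptor gene Fgfr1 fell by 0.78 ± 0.14 and 0.56 ± 0.10. Bmp7, a ligand that favours brown fat, fell by 1.34 ± 0.34 in iWAT, and Nrg4, a factor released by brown adipocytes, fell by 1.36 ± 0.17 in eWAT (limma adjusted p = 0.000258 to 0.0215 for these 6 changes). In all 3 of 10 tested genes of this group were higher and 3 lower in iWAT, and 1 and 5 in eWAT.

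Of the transcriptional regulators, 1 of 13 was called higher and 2 lower in iWAT, and 1 of 12 higher and 3 lower in eWAT. Nfia, a transcription factor active in brown fat, fell in both, by 0.67 ± 0.15 and 1.19 ± 0.13, as Ebf2 did, and Foxc2 by 0.70 ± 0.16 and 0.71 ± 0.14. Esrrg, a nuclear receptor of mitochondrial genes, rose by 1.32 ± 0.20 in iWAT, and in eWAT Cebpb rose by 0.69 ± 0.15 and Irf4 fell by 0.50 ± 0.17 (limma adjusted p = 0.000132 to 0.0364 for these 7 changes).

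Of the beige markers, 1 of 5 was called in iWAT, Tmem26, which fell by 1.31 ± 0.33 (limma adjusted p = 0.0228), and none of 3 in eWAT, where P2rx5 was at 0.39 ± 0.20 and Slc36a2 at 0.25 ± 0.16 (limma adjusted p = 0.159 and 0.248). Brown markers were called higher in 3 of 13 and lower in 1 in iWAT, with Gk, the glycerol kinase, up by 1.29 ± 0.19, the lipid droplet gene Plin5 by 1.06 ± 0.21, the potassium channel gene Kcnk3 by 0.91 ± 0.26 and Slc29a1 down by 0.62 ± 0.17. In eWAT 7 of 12 were higher and 1 lower, where 20.9% and 18.4% of all genes were. Among them were Gk (1.30 ± 0.20), Fabp3 (1.41 ± 0.30), Pdk4 (1.40 ± 0.31) and, lower, Acot2 (-0.46 ± 0.09). The limma adjusted p ran from 0.000689 to 0.0359 over the 8 brown marker changes named. The part of the macrophage and adipocyte changes in eWAT, given above, was not tested.

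Among other routes of heat production, Ckb and Gatm, of the creatine cycle, fell in iWAT by 0.84 ± 0.11 and 0.86 ± 0.19 (2 of 8 genes lower, none higher) and rose in eWAT by 1.79 ± 0.27 and 1.66 ± 0.36, where 3 of 8 were higher and 1 lower. Ucp2, an uncoupling protein gene that macrophages also express, rose by 1.93 ± 0.23 in eWAT (133 against 33.0 FPKM) and Slc25a4 fell by 0.45 ± 0.12 (limma adjusted p = 0.000166 to 0.0151 for these 6 changes). The diet effect was lower in iWAT than in eWAT by a test of the difference for Ckb (-2.98 ± 0.44 with GFP and -2.29 ± 0.44 with irisin, limma adjusted p = 0.00258 and 0.017) and Gatm (-2.20 ± 0.60 and -2.83 ± 0.60, limma adjusted p = 0.0445 and 0.0222). For Ucp2 it was lower with irisin (-1.69 ± 0.46, limma adjusted p = 0.0483), and with GFP the value was -1.15 ± 0.46 (0.183). Of the 8 genes of this list 2 were thus called with GFP and 3 with irisin, against 4.31% and 3.73% of all genes. The macrophage sum in eWAT given above moved with these 3 genes, and its part was not tested.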

How the data were processed

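Polyadenylated RNA of 24 fat libraries was sequenced by the authors. They aligned with HISAT2 2.0.5 and counted with featureCounts 1.5.0-p3, per the submitters' processing notes; no label names the genome build or the strand setting. The deposited values are FPKM per gene, which the authors made from those counts. A further 8 columns that match no single sample were left out. All values (100%) became whole reads, within 0.01, once multiplied by gene length and depth.

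limma 3.58.1 (R 4.3.3, with a trend) was run on log2(FPKM + 0.5), with a minimum of 0.5 FPKM in 3 or more of the libraries fitted, for 4 groups per depot, or 8 for depot comparisons, and was tested on simulated data. The alternatives were other pseudocounts (0.1 and 1), filters and scalings, voom with TMM scaling on the recovered reads, a replicate block, only the groups compared, and leaving out libraries. The 10 members and the gene lists were chosen with earlier results of these data known. Tests are printed where a member was called, in the diet comparisons averaged over vectors and in the vector comparisons on HFD. Of each pathway list, up to 4 called genes with the smallest adjusted p are named, or up to 2 where none was called, and for each member the 3 genes with the highest r; other values were chosen after they were seen.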

Additional observations from a re-analysis of the deposited data

Results flagged for a closer look

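In GFP mice the diet effect on Otop1 differed between the depots by a test of the difference itself: the log2 change in iWAT less that in eWAT was -2.25 ± 0.60 (limma adjusted p = 0.0397). Group means went from 5.70 FPKM on chow to 12.9 on HFD in iWAT and from 0.140 to 6.77 in eWAT. The difference was no longer called in 10 of 12 fits that left out 1 library (limma adjusted p = 0.0528 to 0.0964), with values from -2.41 to -1.73; the last was without iWAT GFP chow 3.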

How the results depend on the processing

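Apart from leaving out 1 library, 162 of 176 counts of called members stayed within 1.5 times the reported count. The 176 include comparisons in which no member was called, and none of those moved. The 14 that moved, given below, were all in comparisons with members called. Of 574 values of named members, 534 kept their direction and their side of the threshold, 26 lost a call, 2 gained one and 12 turned direction, none of the 12 from a called value. The exact p of both Ucp1 tests, which is not adjusted over genes, stayed under 0.05 in 6 of 6. Pseudocounts of 0.1 and 1 left it unchanged, and leaving out 1 library was not tried for Ucp1. Where not plain from fewer samples or genes, the cause of a change was not tested.

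With only the groups compared in the fit, the members called went to 0 for diet in iWAT of GFP mice, 2 for diet in eWAT of irisin mice, 5 between depots for irisin on chow and 0 for irisin on HFD. With a filter of 1 FPKM the count for diet in eWAT of irisin mice was 2, and with voom that in eWAT of GFP mice was 4. Between depots for irisin on chow it was 1 with log2(FPKM + 1), with voom and without the 4 libraries rich in other tissues, and for irisin on HFD 2 with no filter. For the difference of the diet effect between depots with GFP it was 0 with log2(FPKM + 1), with no filter, with a replicate block and without those 4 libraries.

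Leaving out 1 library at a time gave 0 to 2 members called for diet in iWAT of GFP mice, 1 to 3 of irisin mice and 2 to 4 averaged. Between depots it gave 2 to 4 for GFP on HFD, 0 to 2 for irisin on chow and 2 to 5 for irisin on HFD, and 0 to 1 for the depot difference of the diet effect with GFP.

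Signs that turned were all of uncalled values. For diet, Cidea in iWAT was 0.0914 and Ppargc1a in eWAT -0.0612 without the 4 libraries, and Ppargc1a -0.0274 with quantile normalization. For the vector on HFD in iWAT, upper quartile scaling gave -0.0016 for Ppargc1a and -0.001 for Prdm16, voom -0.0255 for Ppargc1a and 0.0038 for Elovl3, and leaving out the 4 libraries -0.14 for Ppargc1a and -0.0492 for Prdm16. In eWAT Ebf2 was -0.0008 with log2(FPKM + 0.1), -0.0093 with upper quartile scaling and -0.0927 without the 4 libraries. Leaving out 1 library spread the diet values over -0.3358 to 0.1822 for Cidea in iWAT, -0.049 to 0.0957 for Ppargc1a and -0.2746 to 0.2461 for Cox8b in eWAT. It spread the vector values on HFD in iWAT over -0.2524 to 0.3428 for Ppargc1a, -0.0492 to 0.1238 for Prdm16 and -0.6717 to 0.7277 for Elovl3. In eWAT these were -0.0566 to 0.2162 for Ppargc1a, -0.0662 to 0.1788 for Dio2, -0.1906 to 0.7108 for Elovl3, -0.6509 to 0.095 for Otop1 and -0.143 to 0.1127 for Ebf2.

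The replicate numbers gave no clear pairing of the libraries. Of 12 same-numbered pairs 2 correlated over 0.1 in their deviations, and 8 of 24 libraries did so best with their own number. This does not decide whether both depots of a number came from the same mouse, which the labels do not state. With the replicate block 2786 genes in place of 2817 were called for diet in iWAT and 6095 in place of 6392 in eWAT, averaged over vectors; Elovl3 was no longer called for diet in iWAT (limma adjusted p = 0.0641) or in eWAT of irisin mice (0.054), and Cox7a1 was called in eWAT (0.0208). At most 22 reads of Ucp1 per library limit what could be seen of it.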
